A study of Rattus norvegicus with 63 samples.

Results

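Methylprednisolone is a synthetic glucocorticoid drug. Kidneys of rats killed 7 and 8 h after they were injected with it were compared with kidneys of untreated rats. The comparison used the main type of Affymetrix array and all of its probe sets, a probe set being a group of short probes for 1 transcript. The members were the 10 arrays titled 7 h, 8 h or 0 h, of 63 arrays in the whole series. They gave 3 treated libraries of each time and 4 untreated ones. The rats of the 0 h group had received nothing, so injection and drug were not separated by a vehicle group. Neither dose, route, strain, sex nor hour of day is stated in the labels, and no genetic change is named for any group. No untreated rat was sampled at a later time, and treatment cannot be told apart from elapsed time or from hour of day. The labels number the samples but do not say that each number is a separate animal, so the p-values measure the spread between numbered samples.

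Methylprednisolone crosses the cell membrane and binds the glucocorticoid receptor, which is held in the cytoplasm by heat shock proteins and the co-chaperone Fkbp5. The bound receptor moves to the nucleus, where it activates some genes through direct contact with DNA and represses others, often through other transcription factors. In the kidney, glucocorticoids are known to act on sodium handling, on glucose production from amino acids, on vitamin D metabolism and on inflammatory genes.

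The 10 arrays had median signals between 70.3 and 79.8, where the signal is the deposited intensity of a probe set on a linear scale. Within a time, the log2 values of any pair of libraries had an r of 0.928 to 0.974 over the probe sets, a description since probe sets of 1 array are not independent. All 7 proximal tubule markers, both thick limb markers and all 4 collecting duct markers passed the filter on dim probe sets (mean log2 level at or above the 40th percentile), as did 2 of 5 hepatocyte markers and none of 4 adrenal markers. The summed signal of the proximal tubule markers was 13846 to 19740 at 7 and 8 h and 16018 to 18507 at 0 h. Other sums reached further below 0 h. They were 1457 to 4114 against 3271 to 3679 for the thick limb, where 8 h alone had 2609 to 2929. For the collecting duct they were 605 to 1136 against 977 to 1130, and for endothelial markers 806 to 1597 against 1221 to 1582. The third library at 7 h had the lowest thick limb Umod (1324) and collecting duct Aqp2 (177) of the 10. For arrays the number of libraries limits the precision.

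2 of the 6 treated libraries, the third at 7 h and the first at 8 h, stood apart from the other 4. Fga, a chain of the clotting protein fibrinogen, had signals of 3999 and 2652 in these libraries, between 55.6 and 107 in the other 4 treated libraries and between 11.4 and 68.5 at 0 h. The chain Fgg was also high, at 4626 and 3035. The chain Fgb, whose probe set was too dim to be tested, was not. It was at 25.8 and 32.7, against 29.1 to 47.9 in the other 4 and 52 to 68.9 at 0 h. Lcn2, the iron-siderophore binding lipocalin made by injured tubules, had signals of 3122 and 3158 against 172 to 268 in the other 4 treated libraries. At 0 h Lcn2 lay between 24.2 and 80.5, below all 6 treated libraries. Havcr1, the kidney injury molecule of the proximal tubule, was at 2029 and 502 against 17.1 to 79.7, and between 48.7 and 217 at 0 h.

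The separation went beyond these genes. Of the acute-phase genes on the array, 11 of 14 were higher in both libraries than in any of the other 8, as were 8 of 13 tubular injury genes, 10 of 15 macrophage and neutrophil genes and 11 of 19 chaperones of the endoplasmic reticulum. Among proximal tubule genes, 10 of 23 were lower in both than in any of the other 8. Over all tested probe sets the shares were 9.65% higher and 9.94% lower. The 2 libraries were named for their acute-phase genes, so these counts describe them and carry no test. The summed signal of the 5 hepatocyte markers was 221 to 271 at 7 and 8 h and 225 to 283 at 0 h, and Alb, serum albumin, lay between 21 and 62.3 in the 10 libraries. Values without the 2 libraries that stood apart are given for many results below, and results given only with them can also depend on them.

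**Figure D1:**
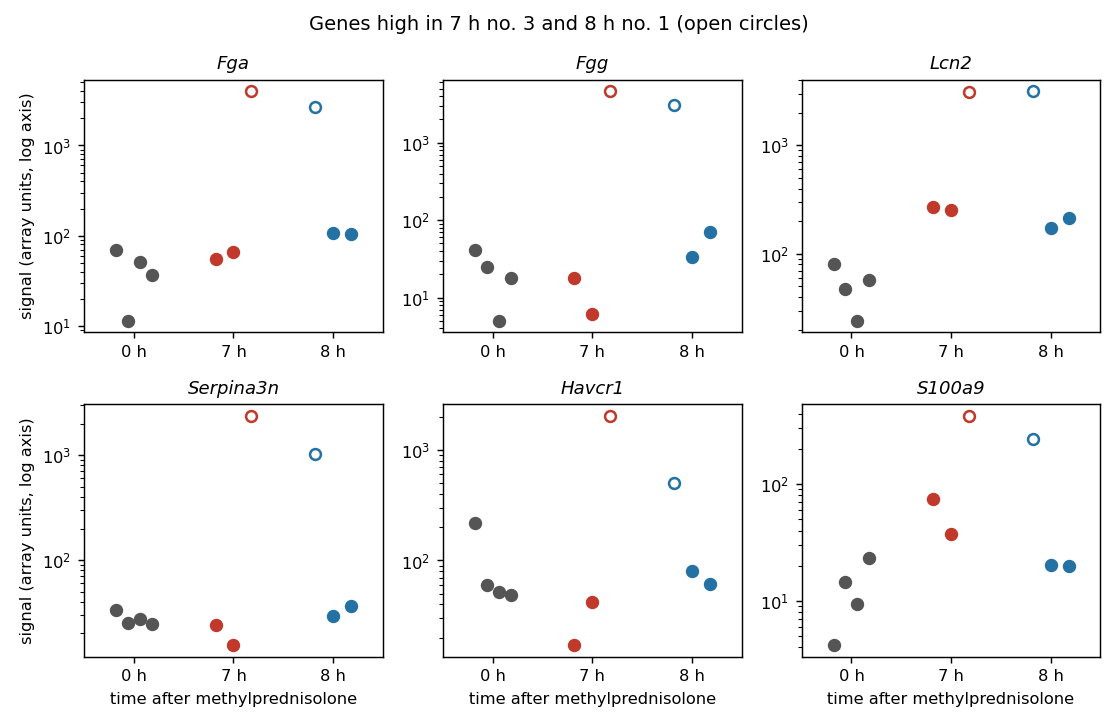
Signals of 6 genes in each library (log axes, array units) at 0, 7 and 8 h; each circle is a library and open circles are the third library at 7 h and the first at 8 h. The open circles lie above every other library for all 6 genes, for example at 3999 and 2652 for Fga.

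Differences were tested with limma on log2(signal + 7.55), with Benjamini-Hochberg adjusted p at a threshold of 0.05 over 9520 probe sets. At 7 and 8 h together, the signal had risen for 250 probe sets (2.63%) and fallen for 198 (2.08%). They stood for 212 and 162 named genes. The median difference of the higher probe sets was 0.76 and of the lower ones -0.68 on the log2 scale, so most changes were under 2-fold. A difference of at least 1 was reached by 81 higher and 41 lower probe sets, and one of at least 2 by 16 and 2. The treated and untreated libraries did not overlap for 190 of the 250 higher probe sets (76%) and for 137 of the 198 lower ones (69.2%), against 6.7% of all tested.

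Without the 2 libraries that stood apart, 174 probe sets were higher and 97 lower. Both of these libraries were at the low extreme of the 10 for 91 of the 198 lower probe sets (46%). They were at the high extreme for 80 of the 250 higher ones (32%). Over all tested probe sets the shares were 9.94% and 9.65%. The calls used these same 2 libraries, so the counts are a description and carry no test. Leaving out single libraries moved the lower count past 1.5 times in 3 cases: to 131 without the third library at 0 h, to 300 without the first at 7 h and to 116 without the third at 7 h.

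Taken alone, 7 h had 215 higher (2.26%) and 171 lower (1.8%) probe sets, and 8 h had 109 higher (1.14%) and 82 lower (0.861%). Both comparisons use the same 0 h libraries. The direct comparison of 8 h with 7 h called no probe set higher (0%) and none lower (0%) in limma. Before adjustment 319 probe sets had a p under 0.05. Weighting the arrays by quality gave 3 higher and 2 lower, and without the first library at 8 h 2 were lower. The different numbers of calls at 7 and 8 h are thus no shown difference between the times.

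The count at 7 h leaned on single libraries. Without replicate 3 at that time 99 probe sets were higher and 52 lower, and the lower count was 293 without replicate 1. Among the 0 h libraries, leaving out replicate 4 gave 143 higher, replicate 2 gave 111 lower and replicate 3 gave 100 lower. At 8 h the lower count was between 33 and 48 without replicate 2, 3 or 4 at 0 h or any 1 of the 3 libraries at 8 h.

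**Figure D2:**
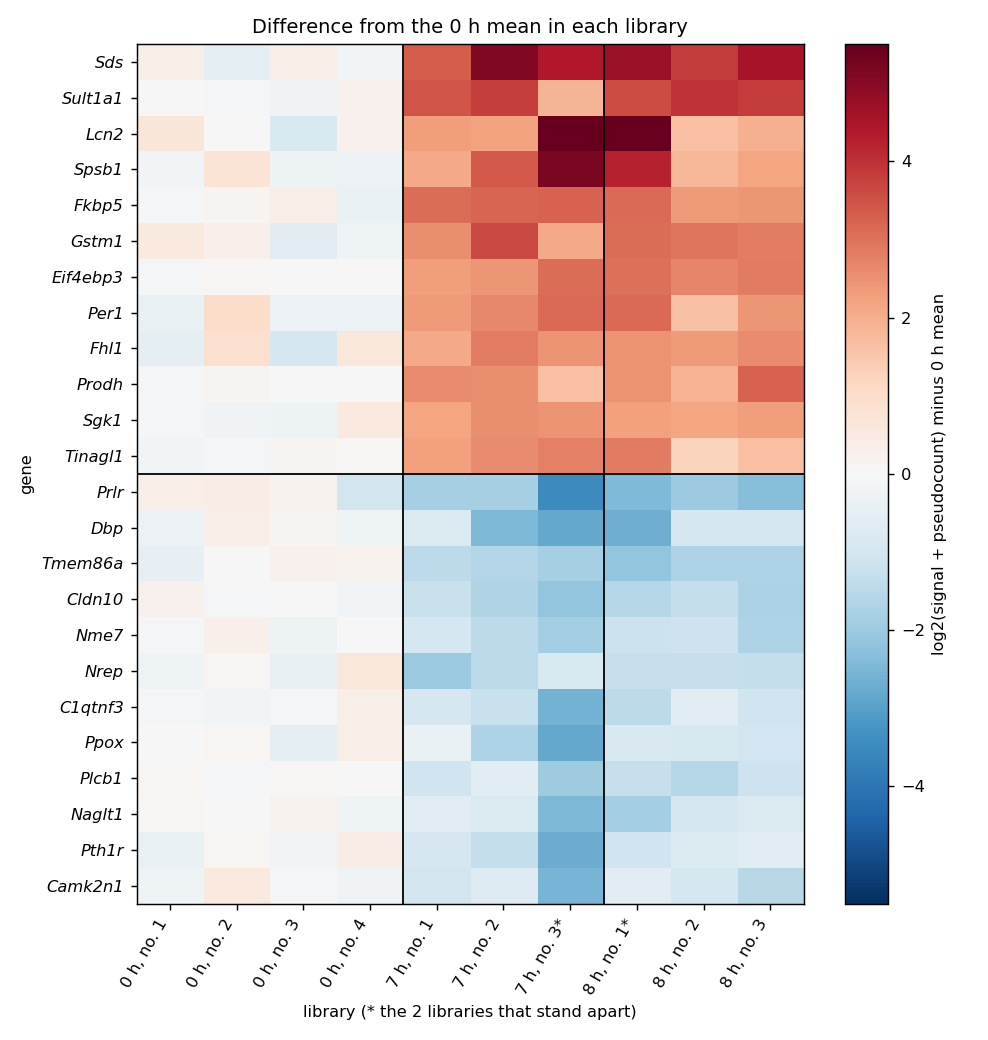
Difference of each library from the 0 h mean, in log2(signal + pseudocount), for the 12 genes with the largest increases (upper block) and the 12 with the largest decreases (lower block); columns are the 4, 3 and 3 libraries at 0, 7 and 8 h. All 6 treated libraries have the direction of the mean for each of the 24 genes, as the choice of the genes required, and the third library at 7 h is often at the extreme.

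The largest increase was that of Sds, serine dehydratase, which turns serine into pyruvate and ammonia. Untreated kidneys had signals of 44.9, 22.5, 44.7 and 30.9. At 7 h they were 421, 1449 and 873, and at 8 h 1140, 602 and 957. The groups were far apart and the treated libraries spread over more than 3-fold. The log2 difference was 4.33 ± 0.38 (SE, adjusted p = 5.36e-11), 20.1-fold on this scale. It was 4.28 at 7 h and 4.38 at 8 h.

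Sult1a1, the second largest increase, and Gstm1 are conjugating enzymes. Sult1a1, a phenol sulfotransferase, had signals of 152, 140, 132 and 181 at 0 h, of 1731, 2226 and 565 at 7 h and of 1874, 2490 and 2250 at 8 h. The third library at 7 h was the lowest treated one and still above all untreated ones. The log2 difference was 3.42 ± 0.29 (adjusted p = 1.37e-11) and 3.78 without the 2 libraries that stood apart. Gstm1, a glutathione S-transferase of the mu class, went from 50.4, 40.6, 18.6 and 25.6 at 0 h to 223, 475 and 162 at 7 h and 329, 293 and 273 at 8 h. Its difference was 2.85 ± 0.49 (adjusted p = 0.000108). Its paralogue Gstm2 rose by 1.97 ± 0.30 (adjusted p = 1.42e-05), and whether probes of the 2 paralogues share signal was not tested. Sult1b1, another sulfotransferase, rose by 1.06. These 4 were the members that rose of 24 tested conjugation and glutathione genes, and none fell. The median of the list was 0.02, against -0.02 over 7106 genes with 1 probe set each, of which 2.86% rose and 2.14% fell. The same number, 4, rose without the 2 libraries that stood apart.

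**Figure D3:**
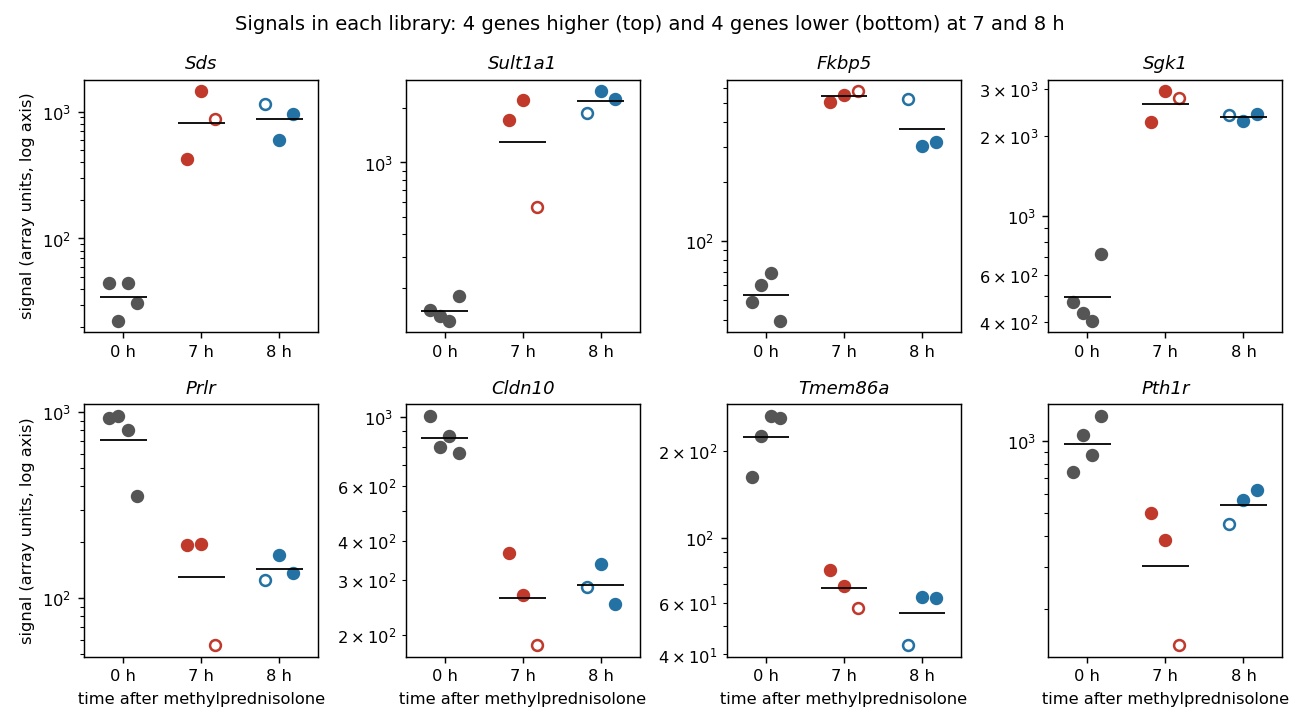
Signals of 4 genes that rose (top) and 4 that fell (bottom) in each library, on log axes in array units; circles are libraries, bars are means on the log scale, and open circles are the 2 libraries that stood apart. Treated and untreated libraries do not overlap for any of the 8 genes, and the third library at 7 h is the lowest treated one for Sult1a1, Prlr, Cldn10 and Pth1r.

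The promoters of Sult1a1, Gstm1 and Spsb1, genes that rose, and of Prlr, which fell, are shown because they hold the 6-base half-site of the glucocorticoid receptor. They are the 250 bases before the RefSeq start, build GRCr8, read 5′ to 3′ on the gene's strand, with the half-site in capitals. The half-site AGAACA (reverse complement TGTTCT, both strands searched) lay 89 bases before the start of Sult1a1 (chr1:190706113-190706362, minus strand), 223 before Gstm1 (chr2:198343384-198343633, minus strand), 61 before Spsb1 (chr5:165654226-165654475, minus strand) and 45 before Prlr (chr2:60909409-60909658, plus strand).
Sult1a1: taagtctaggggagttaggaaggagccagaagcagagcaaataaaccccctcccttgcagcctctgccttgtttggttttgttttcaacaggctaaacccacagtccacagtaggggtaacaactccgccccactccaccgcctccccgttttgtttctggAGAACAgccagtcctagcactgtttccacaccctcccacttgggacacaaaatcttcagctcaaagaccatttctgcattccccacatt
Gstm1: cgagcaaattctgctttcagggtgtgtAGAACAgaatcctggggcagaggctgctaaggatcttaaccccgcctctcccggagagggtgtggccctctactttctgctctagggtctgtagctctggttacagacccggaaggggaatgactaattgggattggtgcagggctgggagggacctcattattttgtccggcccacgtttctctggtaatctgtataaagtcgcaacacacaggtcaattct
Spsb1: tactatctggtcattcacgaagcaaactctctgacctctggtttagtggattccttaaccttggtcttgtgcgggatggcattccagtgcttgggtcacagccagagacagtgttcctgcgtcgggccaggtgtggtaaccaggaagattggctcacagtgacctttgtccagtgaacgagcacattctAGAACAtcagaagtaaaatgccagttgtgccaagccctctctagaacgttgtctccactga
Prlr: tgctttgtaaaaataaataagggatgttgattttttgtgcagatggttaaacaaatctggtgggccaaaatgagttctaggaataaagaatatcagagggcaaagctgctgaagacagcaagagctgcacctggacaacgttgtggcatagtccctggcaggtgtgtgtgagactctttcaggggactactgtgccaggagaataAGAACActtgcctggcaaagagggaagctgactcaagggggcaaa
Of the 12 genes with the largest increases, 10 had a promoter entry and 3 of these held the half-site. Of the 12 with the largest decreases, 11 had an entry and 1 held it. Of the 25 tested glucocorticoid-induced genes, 24 had an entry and 2 held it (Spsb1 and Crispld2). Among all 33469 RefSeq promoters of the same length the share was 17.5%. Sds, Prodh and Camk2n1 had no entry. The clock-related E-box CACGTG, which reads the same on both strands, was in none of the 10, in 1 of the 11 (Naglt1) and in 4 of the 24, against 5.59% of all promoters. A match of letters is a description, not a binding site.

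Of 25 tested glucocorticoid-induced genes, known from many tissues, 15 rose and none fell at 7 and 8 h together, with a median difference of 1.2. Of all genes 2.86% rose and 2.14% fell. Like the other lists, this list was written with earlier results of these data known, so its counts describe it and carry no test. At 7 h alone 13 of the 25 rose, with a median of 1.35, and at 8 h alone 5 rose, with a median of 1.1. Both use the same 0 h libraries, and no gene passed the direct test of 8 h against 7 h. The 5 at 8 h were Fkbp5, Sgk1, Tsc22d3, Per1 and Spsb1. Without the 2 libraries that stood apart 6 rose, with a median of 0.73, against 2.04% and a median of -0.03 over all genes. In both libraries together, 15 of the 28 list members on the array were higher than in any other of the 10, against 9.65% of all tested probe sets. The 6 that passed either way were Fkbp5, Tsc22d3, Sgk1, Per1, Errfi1 and Spsb1.

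Fkbp5, the co-chaperone that lowers the receptor's affinity for its hormone, had signals of 49, 59.8, 69.3 and 39.5 at 0 h. They were 507, 550 and 576 at 7 h and 528, 303 and 317 at 8 h. Every treated library lay at least 4-fold above every untreated one. The log2 difference was 2.91 ± 0.19 (adjusted p = 9.42e-15).

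Sgk1, the kinase that holds the epithelial sodium channel at the membrane, was at 473, 429, 403 and 720 at 0 h. At 7 h it was at 2255, 2949 and 2786 and at 8 h at 2394, 2277 and 2428. The treated libraries were within a narrow range and the difference was 2.33 ± 0.19 (adjusted p = 5.62e-12). Scnn1a, the alpha subunit of that channel, rose by 1.08 ± 0.29 (adjusted p = 0.0162) and gave an adjusted p of 0.0713 without the 2 libraries that stood apart. They were the 2 members that rose of 18 tested genes of sodium and potassium handling, and none fell, against 2.86% and 2.14% of all genes. Slc12a1, the sodium-potassium-chloride cotransporter of the thick limb, differed by -0.45 (adjusted p = 0.251).

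Tsc22d3, the leucine zipper protein that restrains NF-kB and AP-1, had signals of 297, 318, 205 and 347 at 0 h. At 7 h they were 635, 1043 and 966 and at 8 h 1027, 690 and 873, all above the untreated ones. The difference was 1.56 ± 0.17 (adjusted p = 8.95e-09). Spsb1, a substrate adaptor of ubiquitin ligases, was at 7.77, 21.1, 6.56 and 5.92 at 0 h, dim values whose fold is understated by the added 7.55. It was at 64.3, 168 and 603 at 7 h and 316, 52.9 and 69.4 at 8 h, highest in the 2 libraries that stood apart. The difference was 3.15 ± 0.44 (adjusted p = 3.75e-06) and 2.36 without them.

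The calls of other members of the list leaned on those 2 libraries. Nfkbia, the inhibitor that keeps NF-kB in the cytoplasm, was at 651 and 525 in them and between 74.3 and 163 in the other 4 treated libraries, against 31.7 to 70.1 at 0 h. Its difference of 1.96 ± 0.42 (adjusted p = 0.00206) became 1.23 (adjusted p = 0.0587) without them. Dusp1, a phosphatase of MAP kinases, went from an adjusted p of 0.00628 to 0.129, and Zfp36, which destabilises cytokine messages, from 0.0266 to 0.375. Cdkn1a, the cell cycle inhibitor p21, went from 0.00845 to 0.119. Every treated library still lay above every untreated one for Dusp1, Zfp36 and Cdkn1a. Dusp1 was at 195 to 622 against 99.5 to 173 at 0 h. Zfp36 was at 224 to 774 against 148 to 218, and Cdkn1a at 131 to 453 against 65.3 to 103. Members that did not pass included Klf9 (0.54, adjusted p = 0.0928) and Pdk4 (0.47, adjusted p = 0.478).

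The other genes with large increases had several roles. Eif4ebp3, a repressor of cap-dependent translation, was within 168 to 183 at 0 h, at 901, 999 and 1533 at 7 h and at 1494, 1172 and 1349 at 8 h. Its difference of 2.73 ± 0.24 had an adjusted p of 5.51e-11, and its untreated values had the smallest SD of the 12 genes with the largest increases. Prodh, proline dehydrogenase, the first step of proline breakdown, rose from 58.5 to 71.9 at 0 h to 214 to 664 at 7 and 8 h (2.40 ± 0.36, adjusted p = 1.17e-05). Fhl1, a LIM-domain protein, rose by 2.47 ± 0.34 (adjusted p = 2.3e-06) and by 2.04 (adjusted p = 2.94e-11) on its other probe set. Tinagl1, a secreted matrix protein related to tubulointerstitial nephritis antigen, rose by 2.22 ± 0.26 (adjusted p = 5.11e-08). Lcn2 rose by 3.29 ± 0.83 (adjusted p = 0.0116), which became 2.04 (adjusted p = 0.215) without the 2 libraries that stood apart. Its adjusted p was also 0.0565 without the third library at 0 h.

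Amino acid breakdown changed gene by gene. Of 39 tested genes of the list 6 rose and 2 fell, against 2.86% and 2.14% of all genes, with a median of -0.04. Without the 2 libraries that stood apart 9 rose and 1 fell, against 2.04% and 1.13% of all genes. In both of those libraries 13 of the 43 members on the array were lower than in any of the other 8, against 9.94% of all tested probe sets. Beside Sds and Prodh the members that rose were Odc1, ornithine decarboxylase (1.55 ± 0.25, adjusted p = 4.76e-05), Got1, cytosolic aspartate aminotransferase, and 2 more. Got1 was at 418 and 801 in the 2 libraries and at 1009, 1363, 1450 and 1280 in the other 4, against 379 to 483 at 0 h. Its difference was 1.2 with all 6 libraries (adjusted p = 0.00125) and 1.58 without the 2. Gldc, the glycine decarboxylase, passed only without them (1.55, adjusted p = 0.0187, against 1.10 and 0.105).

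The members that fell were Kmo, kynurenine 3-monooxygenase of tryptophan breakdown (-1.01 ± 0.18, adjusted p = 0.000132), and Gatm, which makes the creatine precursor guanidinoacetate (-0.79, adjusted p = 0.0308). Only 1 member of the list fell without the 2 libraries that stood apart. Of 18 tested genes of gluconeogenesis and pyruvate control none rose and none fell in limma, against 2.86% and 2.14% of all genes. Pck1, phosphoenolpyruvate carboxykinase, had a mean signal of 3946 at 7 and 8 h against 3285 at 0 h (0.26 ± 0.17, adjusted p = 0.478).

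Of 16 tested genes of the cytochrome P450 list 4 rose and none fell, against 2.86% and 2.14% of all genes, also without the 2 libraries that stood apart, with a median of 0.03. Por, the reductase that passes electrons to the microsomal P450 enzymes, went from 228, 303, 276 and 245 at 0 h to 1049, 1405 and 700 at 7 h and 1044, 1049 and 1238 at 8 h. Its difference of 1.99 ± 0.20 (adjusted p = 2.41e-09) was 2.04 on its other probe set. Cyp4a8, a fatty acid hydroxylase, rose by 0.76 and Cyp27a1, a sterol hydroxylase of mitochondria, by 0.60.

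Pnpla2, the triglyceride lipase of lipid droplets, lay between 167 and 281 at 0 h and between 602 and 863 at 7 and 8 h (1.66 ± 0.13, adjusted p = 2.95e-12). Cd36, a fatty acid translocase, rose by 1.81 ± 0.39 (adjusted p = 0.00265). Lpl, lipoprotein lipase, rose by 1.24 (adjusted p = 0.019), with signals of 1101 and 699 in the 2 libraries that stood apart, and gave an adjusted p of 0.274 without them. These 3 were the members that rose of 22 tested genes of fatty acid oxidation and lipolysis, against 2.86% of all genes, with a median of 0.12. Insig1, which holds back cholesterol synthesis, rose by 1.60 (adjusted p = 0.000762). It was the 1 member that rose of 15 tested genes of cholesterol and fatty acid synthesis, against 2.86% of all genes.

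The largest decrease was that of Prlr, the prolactin receptor. Its signals were 927, 957, 808 and 354 at 0 h, 193, 196 and 55.9 at 7 h and 125, 172 and 136 at 8 h. All treated libraries lay below all untreated ones. The log2 difference was -2.32 ± 0.34 (adjusted p = 1.05e-05). The probe sets of this gene disagreed in size, since a second gave -0.79 (adjusted p = 0.0763) and another -0.34 with an adjusted p of 0.361.

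Cldn10, a claudin of the tight junctions through which the thick limb passes cations, fell without overlap. It was at 1008, 802, 871 and 767 at 0 h, at 366, 268 and 185 at 7 h and at 285, 337 and 251 at 8 h. The difference was -1.61 ± 0.15 (adjusted p = 2.07e-10) and -1.48 without the 2 libraries that stood apart. Of 13 tested genes of the thick limb and distal tubule 2 fell and none rose, against 2.14% and 2.86% of all genes, with a median of -0.38. The other was Kcnj16, a basolateral potassium channel subunit (-0.75, adjusted p = 0.00958), which gave an adjusted p of 0.168 without those libraries. In bulk tissue fewer cells of a type and less RNA per cell cannot be told apart. Umod, uromodulin, the defining product of the thick limb, differed by -0.38 (adjusted p = 0.285).

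Hormone and signalling genes were also among the decreases. Pth1r, the receptor of parathyroid hormone, was at 745, 1056, 871 and 1271 at 0 h, at 499, 387 and 141 at 7 h and at 451, 569 and 624 at 8 h. Its difference was -1.24 ± 0.24 (adjusted p = 0.000828), and -0.91 (adjusted p = 0.0152) without the 2 libraries that stood apart. Its other probe set gave -0.38 (adjusted p = 0.227). Plcb1, a phospholipase C of receptor signalling, fell by 1.27 (adjusted p = 1.17e-05) from 335 to 387 at 0 h to 88.6 to 236 at 7 and 8 h. Camk2n1, an inhibitor of calmodulin kinase II, differed by -1.23 (adjusted p = 0.0192). Its adjusted p was 0.111 without the second library at 0 h, 0.103 without the third at 7 h, 0.0587 without the third at 8 h and 0.0793 without the 2 libraries that stood apart. Its other probe set gave -0.61 (adjusted p = 0.661).

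The other named decreases had several roles. Tmem86a, a lysoplasmalogenase, fell from 162, 225, 263 and 258 at 0 h to 77.8, 68.8 and 57.8 at 7 h and 43, 62.9 and 62.7 at 8 h (-1.74 ± 0.27, adjusted p = 1.86e-05). Ppox, which makes protoporphyrin in haem synthesis, fell by 1.28 (adjusted p = 0.000552), although the first library at 7 h, at 95.3, lay above the lowest untreated one, at 86.6. The difference of Ppox was -0.99 (adjusted p = 0.00394) without the 2 libraries that stood apart. Naglt1, a sodium-dependent glucose transporter, fell by 1.25 (adjusted p = 0.000497), with signals of 264 and 404 in the 2 libraries that stood apart and between 787 and 961 in the other 4. It was -0.79 without them (adjusted p = 0.00867). Nme7, of the nucleoside diphosphate kinase family, Nrep and the secreted protein C1qtnf3 fell by 1.38, 1.37 and 1.32. Their differences were -1.31, -1.54 and -0.97 without the 2 libraries that stood apart, and all passed.

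Of 23 tested proximal tubule genes 3 fell and 1 rose, against 2.14% and 2.86% of all genes, with a median of -0.05. Without the 2 libraries that stood apart none fell and 1 rose. In both of those libraries 10 of the 23 were lower than in any other, against 9.94% of all tested probe sets. Cubn, the endocytic receptor cubilin, was the member that rose (0.67 ± 0.15, adjusted p = 0.00286). Of 14 tested organic ion and peptide transporters 3 fell, against 2.14% of all genes, with a median of -0.39. Without those libraries 1 fell, with a median of -0.24. Slc22a5, the carnitine transporter, fell by 0.70 (adjusted p = 0.00183) and passed either way (adjusted p = 0.0442).

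Clock genes moved one by one. Per1, a repressor of the clock and a receptor target, had signals of 12.9, 44.7, 13.2 and 13.1 at 0 h, 126, 155 and 215 at 7 h and 217, 71.5 and 131 at 8 h. Its difference was 2.54 ± 0.35 (adjusted p = 3.33e-06). Dbp, a clock output factor, was at 143, 236, 200 and 153 at 0 h, at 100, 26.6 and 19 at 7 h and at 21.9, 90 and 88.1 at 8 h. Its difference was -1.77 ± 0.43 (adjusted p = 0.00803). It gave -1.29 (adjusted p = 0.126) without the 2 libraries that stood apart, which held its 2 lowest values.

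Nr1d1, the repressor Rev-erb alpha, differed by -1.03 ± 0.22 (adjusted p = 0.00212) and passed either way, although its lowest untreated value, 42.5, was below the highest treated one, 43.7. These were the members that changed among 13 tested clock genes, 1 up and 2 down, against 2.86% and 2.14% of all genes. Without the 2 libraries 2 rose and 1 fell, against 2.04% and 1.13% of all genes. The receptor gene itself, Nr3c1, was at 210, 195, 222 and 204 at 0 h and between 105 and 173 in the treated libraries, with no overlap (-0.51 ± 0.12, adjusted p = 0.00451). It was the 1 member that fell of 11 tested genes of the receptor and its chaperones, against 2.14% of all genes. None fell without the 2 libraries.

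Immune and matrix genes split by gene. Of 13 tested macrophage and neutrophil genes 3 rose, against 2.86% of all genes. The same number rose without the 2 libraries that stood apart, where Tyrobp, a signalling adaptor of myeloid cells, fell (-0.57, adjusted p = 0.0157). C1qb, a chain of complement C1q made by macrophages, was at 75.1, 69.6, 50.5 and 112 at 0 h, at 202, 197 and 311 at 7 h and at 301, 185 and 133 at 8 h. All treated libraries were above all untreated ones (1.43 ± 0.22, adjusted p = 2.9e-05). C1qc rose by 0.92 and Lyz2, lysozyme, by 0.59. The summed signal of 6 macrophage and neutrophil markers, C1qb among them, was 294 to 527 at 0 h and 438 to 1464 at 7 and 8 h. The highest sums, 1464 and 1265, were those of the 2 libraries that stood apart. C1qb was the 1 marker that passed of 5 tested. C1qa differed by 0.70 (adjusted p = 0.0531), S100a9 by 2.07 (0.112), Cd68 by 0.32 (0.615) and Csf1r by 0.08 (0.892). The part of cell numbers in these values was not tested. Of 15 tested chemokines, cytokines and adhesion molecules none rose and none fell in limma, against 2.86% and 2.14% of all genes. Cxcl1, a neutrophil attractant, was at 863 and 466 in the 2 libraries and between 2.12 and 45.9 in the other 4.

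In the list of the extracellular matrix 3 of 26 rose and none fell, against 2.86% and 2.14% of all genes. The counts of the list were the same without the 2 libraries. Lox, which cross-links collagen, rose from between 29.1 and 50.8 at 0 h to between 92.6 and 202 (1.74 ± 0.29, adjusted p = 7.87e-05). Mgp, an inhibitor of calcification, rose by 1.08 and Ccn2, the connective tissue growth factor, by 1.93. Of 7 tested podocyte genes 1 fell, against 2.14% of all genes. This was Synpo, an actin-binding protein of the foot process (-0.82 ± 0.14, adjusted p = 0.000131), whose other probe set gave 0.13 (adjusted p = 0.758). The summed signal of 4 podocyte markers, with Synpo among them, was 788 to 1086 at 0 h and 502 to 734 at 7 and 8 h, with no overlap. Without Synpo the other 3 summed to 417 to 587 and to 329 to 478, which overlap.

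**Figure D4:**
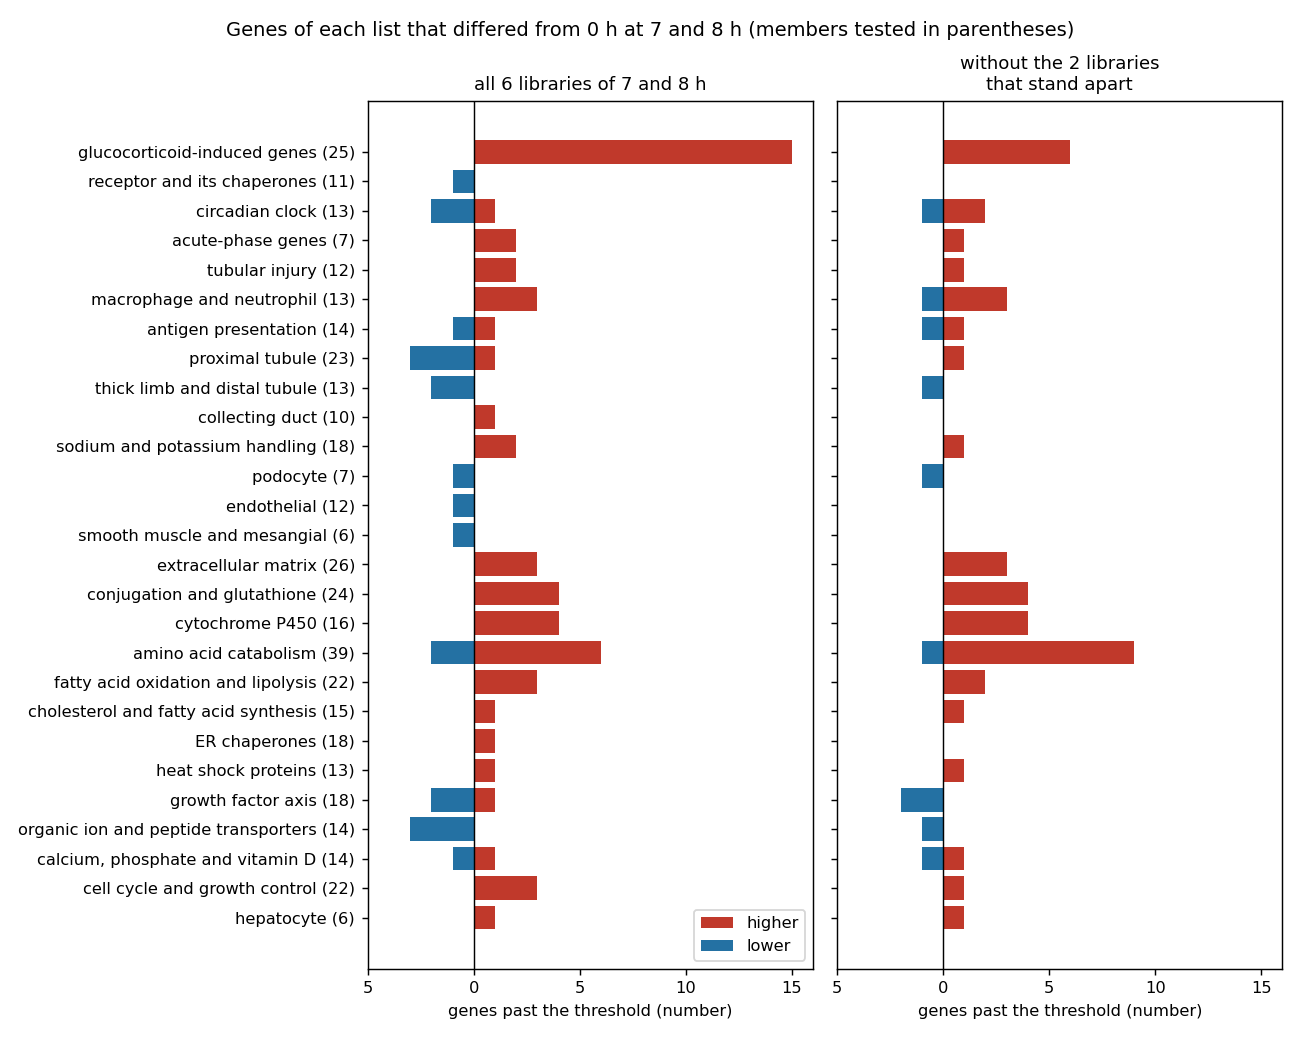
Number of genes past the threshold in each list at 7 and 8 h against 0 h, higher to the right and lower to the left, with all 6 treated libraries (left panel) and without the 2 that stood apart (right panel); lists with no call in either panel are not drawn. The glucocorticoid-induced list has 15 of 25 higher on the left and 6 on the right, and the amino acid list 6 and 9 higher.

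To see where 7 and 8 h stood in the response, they were set against the 9 libraries of 5, 5.5 and 6 h, a comparison that uses no 0 h library. 22 probe sets (0.231%) were higher and 48 (0.504%) lower at 7 and 8 h. Without the 2 libraries that stood apart 63 were higher and 95 lower. No library of 5 to 6 h was left out in that fit, although Lcn2 ranged from 172 to 3970 among them, with a median of 400. The higher count fell to between 8 and 14 without the first or second library at 5.5 h, the second at 6 h, the first at 7 h or replicate 2 or 3 at 8 h, and was 43 without the third at 7 h. The lower count was 22 without the first library at 7 h, 25 without the second at 8 h and 30 without the third at 8 h.

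The largest decrease from 5 to 6 h was that of Amd1, adenosylmethionine decarboxylase, which commits methionine to polyamine synthesis. Its signals were 661 to 1666, median 1195, at 5 to 6 h. At 7 h they were 233, 452 and 467 and at 8 h 369, 164 and 183, all below the earlier libraries. The log2 difference was -1.97 ± 0.17 (adjusted p = 1.1e-10). Against 0 h, where it lay between 236 and 269, it differed by 0.18 (adjusted p = 0.744).

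Ddit4, Herpud1 and Ccn2 were lower than at 5 to 6 h and had risen against 0 h. Ddit4, an inhibitor of the growth kinase complex mTORC1, went from a median of 873 at 5 to 6 h to 93.9, 321 and 642 at 7 h and 500, 88.5 and 144 at 8 h (-1.83 ± 0.29, adjusted p = 0.00027). Its values at 0 h were 49.3 to 90.6, and its rise against them (1.62, adjusted p = 0.00322) gave an adjusted p of 0.0851 without the 2 libraries that stood apart. Herpud1, of the endoplasmic reticulum's degradation of misfolded proteins, had a median of 1136 at 5 to 6 h and was at 351, 501 and 1158 at 7 h and 510, 355 and 308 at 8 h (-1.31 ± 0.17, adjusted p = 7.84e-06). Against 0 h it rose by 0.81 (adjusted p = 0.0132), and by 0.47 (adjusted p = 0.218) without those libraries. Ccn2 lay between 2391 and 4089 at 5 to 6 h and between 924 and 2082 at 7 and 8 h, without overlap (-1.16 ± 0.18, adjusted p = 0.000217).

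Mmp11, a matrix metalloproteinase, was lower by a difference of -1.30 (adjusted p = 0.00201). Against 0 h Mmp11 had risen by 1.07 (adjusted p = 0.022), also without the 2 libraries that stood apart (1.14, adjusted p = 0.0442). Slc25a25, the mitochondrial ATP-magnesium carrier, was at -1.63 (adjusted p = 0.046) and lost that call in 12 of the fits that left out 1 library. Its rise against 0 h (1.94, adjusted p = 0.0151) gave an adjusted p of 0.0772 without the 2 libraries that stood apart. Of the 25 glucocorticoid-induced genes tested 6 were lower than at 5 to 6 h and none higher, against 39 and 16 of 7106 genes, with a median of -0.71. Beside Ddit4 and Slc25a25 these were Dusp1 (-1.13, adjusted p = 0.00544), Zfp36 (-0.99, adjusted p = 0.0331), Tsc22d3 (-0.81, adjusted p = 0.000507) and Errfi1 (-0.71, adjusted p = 0.0157). Fkbp5 differed by -0.37 (adjusted p = 0.487) and Sgk1 by -0.33 (adjusted p = 0.611).

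Cyp27b1, the 1-alpha-hydroxylase that makes active vitamin D in the proximal tubule, was the largest increase over 5 to 6 h. Its signals were 162, 140 and 229 at 7 h and 159, 156 and 174 at 8 h, above all 9 libraries of 5 to 6 h, which lay between 56.5 and 102. They were also above the 0 h values of 110, 60.6, 69.8 and 73.8. The difference was 1.18 ± 0.17 from 5 to 6 h (adjusted p = 7.11e-05) and 1.06 ± 0.21 from 0 h (adjusted p = 0.00106). At 12 h its mean signal was 103 and at 4 h 41.4.

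Other genes higher than at 5 to 6 h had signals at 7 and 8 h that did not pass the test against 0 h. Igf2r, the mannose 6-phosphate receptor, had a median of 458 at 5 to 6 h, 1063 at 7 and 8 h and 1385 at 0 h (1.07 ± 0.20 from 5 to 6 h, adjusted p = 0.00184). Slc16a1, a monocarboxylate transporter, lay between 176 and 322 at 5 to 6 h and between 377 and 467 at 7 and 8 h, overlapping the 356 to 711 of 0 h (0.82 ± 0.16, adjusted p = 0.0048). Plau, the urokinase plasminogen activator, was higher by 0.97 (adjusted p = 0.0329), Esm1, an endothelial proteoglycan, by 1.13 (adjusted p = 0.0411) and Degs2, a sphingolipid hydroxylase, by 0.75 (adjusted p = 0.032). Mean signals at 7 h and 8 h were 505 and 670 for Plau, 72.5 and 176 for Esm1 and 434 and 498 for Degs2. At 5 to 6 h the means of these genes were 293, 47.9 and 274, and at 0 h 940, 151 and 461. Those 3 calls were lost in 8, 11 and 8 of the fits that left out 1 library. When only the compared times entered the fit, they and those of Igf2r (adjusted p = 0.141), Ddit4 (0.131) and Mmp11 (0.28) were lost.

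None of the 24 genes named for their difference from 0 h passed the test against 5 to 6 h with all 6 treated libraries. Without the 2 that stood apart, and with all libraries of 5 to 6 h kept, 1 did, Spsb1 (-1.71, adjusted p = 0.00199, against -0.93 and 0.411). Sds differed by -0.03 ± 0.31 from 5 to 6 h (adjusted p = 0.997), Sult1a1 by 0.07 ± 0.23 (adjusted p = 0.987), Gstm1 by 0.24 ± 0.40 (adjusted p = 0.968) and Prodh by 0.74 ± 0.29 (adjusted p = 0.431). Over all 17 times, Gstm1 and Prodh had their highest mean at 8 h, at 297 and 404, and the other 10 of the 12 increases at another time. Of the 12 largest decreases, 9 had their lowest mean at 7 or 8 h. The genes were chosen at 7 and 8 h, so these counts describe them only. At 12 h the mean signal of Sds was 100, while that of Sult1a1 was 1543, of Gstm1 252 and of Prodh 321.

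**Figure D5:**
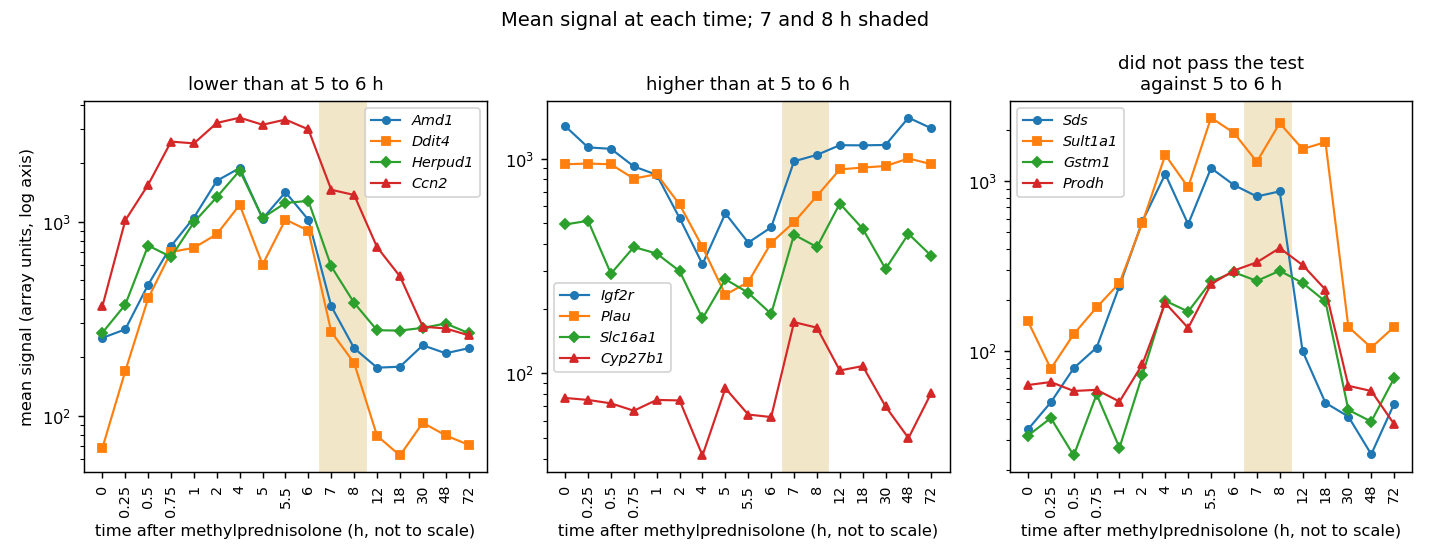
Mean signal (log axis, array units) of 12 genes at each of the 17 times, in equal steps along the axis, with 7 and 8 h shaded; each point is the mean of the libraries of that time on the log scale. Amd1, Ddit4, Herpud1 and Ccn2 are lower at 7 and 8 h than at 5 to 6 h, Igf2r, Plau, Slc16a1 and Cyp27b1 are higher, and Sds, Sult1a1, Gstm1 and Prodh did not pass that test.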

How the data were processed

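Total RNA of rat kidney was measured on the main Affymetrix array type. The second array type was not used here. The deposited value is an intensity per probe set, which the authors had scaled: with 2% of values trimmed at either end, array means were 150.03 to 150.04. How probe values were combined into intensities is not stated in the labels. Arrays a and b of 5 h replicate 1 were averaged, giving 52 libraries from 53 arrays and 17 times; no columns were identical.

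Values were taken as log2(intensity + 7.55), the addend being the 10th percentile of the table, which understates the change of dim probe sets. Of 15923 probe sets, 57 controls were removed and those at or above the 40th percentile of mean log2 level, a signal of 52.3, were tested. All 17 times entered 1 fit in limma 3.58.1 (R 4.3.3, empirical Bayes with trend, Benjamini-Hochberg adjustment), which was tested on simulated data. Folds, SEs and mean signals refer to this log scale, and ± is the SE of the difference between 6 treated and 4 untreated or 9 earlier libraries. The spread behind it was estimated over all 52 libraries, not from the compared ones alone.

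Symbols came from the platform annotation updated to GRCr8: 12783 probe sets had 1 symbol, 312 several and 2771 none; 12748 of the single symbols were updated through gene identifiers and 2 through accessions, and 33 stayed as given. Lists used the brightest probe set of each gene. Genes were named where the adjusted p passed and every compared library lay on 1 side of the reference mean: the 12 largest in each direction against 0 h, the 6 largest against 5 to 6 h, up to 4 members past the threshold in a list, and counter-examples. For 8 h against 7 h no gene qualified. Outside this rule, Tsc22d3, Nfkbia, Dusp1, Zfp36, Cdkn1a, Errfi1, Kmo, Gatm, Gldc and Tyrobp were named after their values were seen. Members, lists and genes were chosen with earlier results of these data known. Same-numbered libraries did not deviate together (r from -0.293 to 0.268, 3 of 9 pairs above 0.1), so numbers were not treated as pairs. The alternatives are given in the closing section. Promoter sequences are from RefSeq.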

Additional observations from a re-analysis of the deposited data

Results flagged for a closer look

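6 values lay far from the other libraries of their group, among 72 groups looked at. Chance alone sets apart about 1 in 20 such groups. The third library at 7 h was low for Sult1a1 (565 against 1731 to 2490 in the other treated libraries), Prlr (55.9 against 125 to 196) and Pth1r (141 against 387 to 624). The second library at 0 h was high for Per1 (44.7 against 12.9 to 13.2 in the other untreated libraries), Spsb1 (21.1 against 5.92 to 7.77) and Camk2n1 (132 against 75.3 to 82.5).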

How the results depend on the processing

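All 743 values of the 36 named results kept their direction under the alternatives run, 673 kept their call and 70 lost it. Of the 24 genes named against 0 h, 18 kept the call in every alternative, as did 5 of 12 named against 5 to 6 h. Counts are given as higher and lower probe sets. With the compared times alone in the fit, which leaves fewer libraries to estimate the spread, they were 140 and 83 for 7 and 8 h together, 87 and 63 for 7 h, 55 and 23 for 8 h, and 4 and 13 against 5 to 6 h; Ppox (adjusted p = 0.114), Naglt1 (0.0887), Pth1r (0.0573), Dbp (0.0569) and Lcn2 (0.082) then lost the call against 0 h, and Igf2r (0.141), Ddit4 (0.131), Mmp11 (0.28), Esm1 (0.426), Plau (0.428) and Degs2 (0.173) that against 5 to 6 h. With array weights, whose fit stopped before it converged, they were 453 and 418, 367 and 321, 299 and 272, and 111 and 168, with 3 and 2 for 8 h against 7 h. Without the 2 libraries that stood apart they were 174 and 97 together, 98 and 55 at 7 h, 42 lower at 8 h, and 63 and 95 against 5 to 6 h. Centring arrays on their medians moved the median difference of all probe sets from -0.03 to 0.02 and gave 104 lower at 7 h and 1 lower for 8 h against 7 h; without arrays of letter b or c that comparison also had 1 lower. The share of calls that were higher was 55.8%, 66.3% with median centring and 64.2% without the 2 libraries. Leaving out 1 library gave 179 to 317 higher and 116 to 300 lower together, 99 to 269 and 52 to 293 at 7 h, 75 to 103 and 33 to 77 at 8 h, 0 to 2 lower for 8 h against 7 h, and 8 to 43 and 22 to 71 against 5 to 6 h. With a replicate block the counts were 194 and 143 together, 158 and 119 at 7 h, 96 and 56 at 8 h, 24 and 45 against 5 to 6 h and 0 and 0 for 8 h against 7 h. Probe sets near background are limited by the added constant: with 4 times that constant the difference of Spsb1 was 2.17 instead of 3.15. Sds then had 3.74 instead of 4.33 and Gstm1 2.3 instead of 2.85. Per1 had 1.82 instead of 2.54 and Fhl1 1.85 instead of 2.47. The cause of these moves was not tested.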

Other observations

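Apoh, apolipoprotein H, a plasma protein made mainly by the liver, rose in kidney from between 54 and 88.6 at 0 h to 264, 210 and 216 at 7 h and 184, 237 and 308 at 8 h (limma, 1.53 ± 0.27, adjusted p = 0.000167). It was the 1 member that rose of 6 tested hepatocyte genes, against 2.86% of all genes. Ttr, transthyretin, differed by 0.26 (adjusted p = 0.73). RT1-DMa, which loads peptides onto class II molecules, rose by 1.31 ± 0.22 (adjusted p = 7.48e-05), while RT1-Da, a class II chain, differed by -0.49 ± 0.13 (adjusted p = 0.0134); both passed without the 2 libraries that stood apart. Igfbp5, an insulin-like growth factor binding protein, fell by 0.90 (adjusted p = 5.79e-05). Hspb1, a small heat shock protein, rose by 1.30 (adjusted p = 0.0014). It was the 1 member that rose of 13 tested heat shock genes, against 2.86% of all genes. Tie1, an endothelial receptor, fell by 0.78 (adjusted p = 0.0123), with an adjusted p of 0.0587 without the 2 libraries.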
